A study of Homo sapiens with 6 samples.

Results

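MDA-MB-231 is a long-established human line of triple-negative breast cancer, a class that lacks the oestrogen and progesterone receptors and amplified HER2, and it is commonly used as a model of mesenchymal-like, invasive tumour cells. The resting expression programme of these cells was described from the 3 control libraries of a knockdown study. Genes were taken as expressed where they were protein-coding or lncRNA genes with at least 1 FPKM (fragments per kilobase of gene model, scaled to the reads of the library, so a level per length) in all 3 control libraries. This rule kept 10897 of the 30714 protein-coding and lncRNA genes in the deposited count table. They were 10182 of 18669 protein-coding genes (54.5%) and 715 of 12045 lncRNA genes (5.94%). The genes were chosen by their FPKM in these same libraries, so the levels below are a description and no test was made of them.

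The whole series held 6 libraries, 3 of which came from cells given an siRNA against SF3B6 and were not used here. The 3 control libraries (siNC) came from cells transfected, with a lipid reagent, with a non-targeting siRNA duplex, so they are control-transfected and not untouched cells. All were grown in DMEM with 10% fetal bovine serum. The titles name MDA-MB-231 for every library, whereas the cell line field counts upward from that name. The series design calls the replicates biological, and no label says whether they were separate cultures or days, so the spread given below is that between these 3 libraries. The control duplex is shown because every value below was measured in its presence. Its sense strand, with the overhang in capitals, has no exact match on either strand, over its 19 bases before the overhang, in the 206694 transcripts of GENCODE release 29.
siNC sense strand: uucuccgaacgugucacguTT

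Polyadenylated RNA was sequenced with a strand-specific protocol. Reads counted on genes came to 29627499 in siNC replicate 1, 28504091 in replicate 2 and 33754386 in replicate 3, and expressed genes took 96.9% to 97.2% of them. At these depths 3 reads, the limit that a count of 0 allows, are 0.0889 to 0.105 CPM (counts scaled to the library total), for counting error only. Replicate 3 stood apart in 2 respects. Mitochondrially encoded genes took 9.07% of its reads, against 3.38% and 3.93% in replicates 1 and 2, and only 24579 genes had a read in it, against 30930 and 32041. The number of expressed genes was 10988 without that library. Nuclear expressed genes had a median coefficient of variation over the 3 libraries of 6.90%, and the log2 FPKM of the 3 pairs of libraries had correlations across 10884 genes of 0.991 to 0.998, which describe genes of 1 sample and not replicates.

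Breast epithelium has an inner luminal layer, marked by simple keratins and, in part of its cells, by hormone receptors, and an outer basal layer marked by other keratins and TP63. Epithelial-mesenchymal transition is the programme in which such cells lose E-cadherin junctions and gain vimentin filaments and motility, under transcription factors of the SNAI, ZEB and TWIST families. The 5 markers by which the line is known were all expressed, and their order was VIM, CAV1, AXL, CD44 and EGFR. VIM, the mesenchymal intermediate filament protein (chromosome 10, 17228259 to 17237593, GRCh38, by GENCODE release 29), had 481, 472 and 547 FPKM. CAV1, the coat protein of caveolae, had 138, 131 and 144 FPKM, and AXL, a receptor tyrosine kinase that binds GAS6, had 94.2, 93.0 and 113 FPKM. CD44, the hyaluronan receptor, had 44.3, 43.1 and 49.0 FPKM, and EGFR, the epidermal growth factor receptor, had 10.4, 9.84 and 11.1 FPKM. The ranges of these 5 genes over the libraries did not overlap. These 5 genes came with the name of the line, and the threshold is the one that chose the genes described here. Their expression is thus a description and no check of that name. The luminal genes below add a reservation.

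Of the 30 genes listed as mesenchymal, 27 were expressed (90%, against 54.5% of all protein-coding genes). Of these, 13 had a mean of 100 FPKM or more. The list also holds calcium-binding and caveolar coat genes, so the count is no measure of lineage. The highest was S100A6, a calcium-binding protein, at 2280, 2279 and 2666 FPKM. It was followed by S100A11 (574, 627 and 700 FPKM), LGALS1, which encodes galectin-1 (534, 568 and 661 FPKM), and S100A10, the partner of annexin A2 (513, 510 and 684 FPKM). S100A4, a calcium-binding protein linked to motility, had 522, 500 and 476 FPKM. The caveolar coat genes CAVIN1 (154, 147 and 140 FPKM) and CAVIN3 (160, 162 and 121 FPKM) lay at the level of CAV1, and 33.3% of the exonic bases of CAVIN3 lie opposite an antisense gene. The mesenchymal cadherin CDH2 was at 0.08, 0.07 and 0.05 FPKM and the matrix protein SPARC at 0.08, 0.16 and 0.13 FPKM, whereas CDH11 had 7.14, 7 and 7.76 FPKM. The smooth muscle gene TAGLN had 0.72, 0.60 and 0.66 FPKM, so mesenchymal genes were far from uniform.

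Among 21 transcription factor genes of the transition, 14 were expressed (66.7%, against 54.5% of all protein-coding genes). The architectural factor HMGA1 (863, 889 and 836 FPKM) and the AP-1 subunit FOSL1 (100.0, 108 and 134 FPKM) led them. SOX9, ETS1, KLF4 and SOX4 followed with means of 14.8, 13.04, 11.3 and 8.69 FPKM. The classical repressors of E-cadherin were lower. SNAI2 had 4.88, 4.26 and 5.32 FPKM, SNAI1 had 4.02, 3.87 and 3.16 FPKM, and ZEB1 had 3.05, 2.82 and 3.26 FPKM, ranges that lie close together and in part overlap. ZEB2 and PRRX1 had at most 0.23 FPKM in any library, and TWIST1 and TWIST2 at most 0.02 FPKM.

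**Figure D1:**
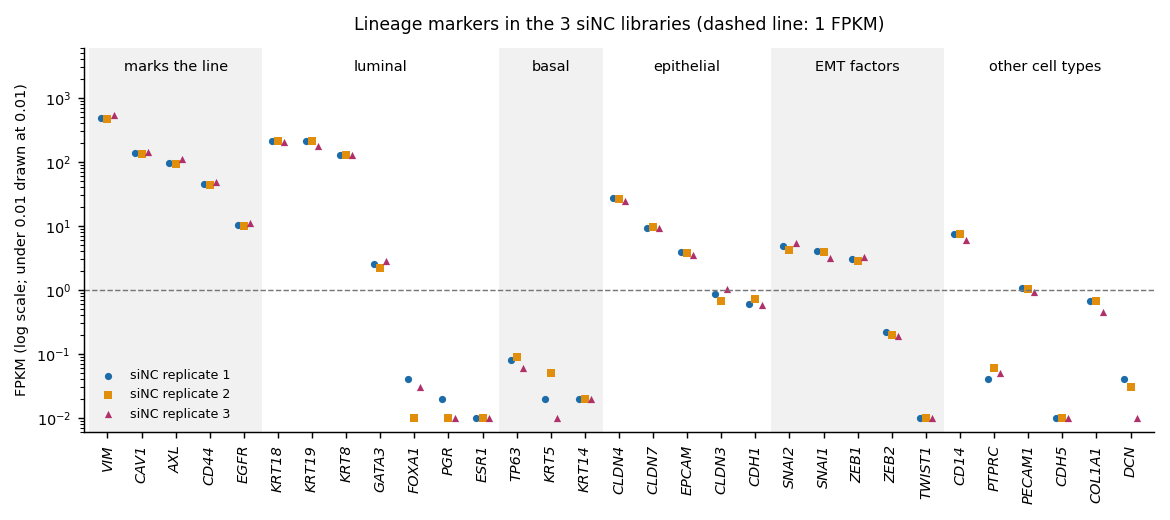
FPKM on a log scale (y axis) of lineage markers (x axis), 1 point per siNC library, with the dashed line at 1 FPKM and values under 0.01 drawn at 0.01. VIM, CAV1 and the simple keratins lie above 100 FPKM in all 3 libraries, whereas ESR1, PGR, FOXA1, KRT5, KRT14 and TWIST1 lie under 0.1 FPKM.

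The luminal genes ranged from far above the threshold to 0. Of 30 luminal and hormone receptor genes, 16 were expressed, a share near the 54.5% of all protein-coding genes. Keratins of simple epithelium led them, with KRT18 at 213, 209 and 205 FPKM, KRT19 at 212, 209 and 177 FPKM, KRT7 at 169, 160 and 154 FPKM and KRT8 at 128, 129 and 126 FPKM. VIM was 2.26, 2.26 and 2.67 times the level of KRT18 in the 3 libraries. Genes of luminal secretion were expressed as well. AGR2, a disulfide isomerase of mucus-secreting cells, had 48.9, 46.2 and 55.0 FPKM, and SPDEF, an ETS factor of such cells, had 42.5, 41.9 and 47.0 FPKM. The trefoil peptide genes TFF3 (29.5, 28.8 and 27.5 FPKM) and TFF1 (17.2, 19.8 and 16.6 FPKM) were also above the threshold in all 3 libraries. Other luminal genes were at or near 0. ESR1, the oestrogen receptor gene, had 0.01, 0.01 and 0 FPKM, PGR, the progesterone receptor gene, had 0.02, 0.01 and 0.01 FPKM, and FOXA1, a pioneer factor of luminal cells, had 0.04, 0.01 and 0.03 FPKM. GATA3, another luminal factor, lay between at 2.51, 2.23 and 2.84 FPKM. The keratin and secretory genes named here were above the threshold in the same libraries as VIM, while ESR1 and PGR were not.

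Of 24 basal and myoepithelial genes in the tables, 5 were expressed (20.8%, against 54.5% of all protein-coding genes). Among them were KRT81 (137, 132 and 124 FPKM), which has close copies in its family that may share reads, the laminin chain gene LAMB3 (40.7, 38.2 and 33.7 FPKM), KRT80 (30.2, 29.2 and 30.3 FPKM) and EGFR. The genes that define the basal layer were not: KRT5, KRT14 and TP63 had at most 0.05, 0.02 and 0.09 FPKM in any library. KRT17 had 0.27, 0.19 and 0.34 FPKM. In the junction list 21 of 41 genes were expressed, a share near the 54.5% of all protein-coding genes. CDH1, which encodes E-cadherin, was under the threshold at 0.60, 0.73 and 0.57 FPKM, while its intracellular partners CTNNA1 (52.1, 52.4 and 55.2 FPKM) and CTNNB1 (25.4, 23.5 and 23.9 FPKM) were not. The protease inhibitor SPINT2 led the list at 86.4, 83.3 and 72.3 FPKM. The tight junction genes CLDN4 and CLDN7 had means of 26.2 and 9.40 FPKM with standard deviations of 1.43 and 0.30, and EPCAM had 3.92, 3.83 and 3.51 FPKM. GRHL2, OVOL1, OVOL2 and ESRP1, regulators of the epithelial state, had at most 0.07 FPKM in any library. Such regulators were not uniformly absent, since ESRP2 of the same list was expressed at 1.35, 1.38 and 1.42 FPKM. In the luminal list the factor genes EHF and ELF3 were expressed at means of 5.90 and 1.63 FPKM.

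Other gene families of identity were mostly under the threshold. The shares expressed were 7.69% for HOX genes, 37.5% for nuclear receptors and 19.35% for cancer-testis antigens, against 54.5% of all protein-coding genes. Of 39 HOX genes, which encode factors of body position, 3 were expressed: HOXD1 (3.59, 3.32 and 3.17 FPKM), HOXB9 (2.09, 1.81 and 1.53 FPKM) and HOXD4 (1.64, 1.80 and 1.50 FPKM). HOXD4 shares 80.5% of its exonic bases with a same-strand gene that has no row, and HOXD1 58.1% with one on the opposite strand. Among 48 nuclear receptor genes, 18 were expressed, led by the orphan receptor gene NR2F6 (32.0, 31.4 and 27.4 FPKM), ESRRA and RXRB. NR3C1, which encodes the glucocorticoid receptor, had 7.55, 6.96 and 7.38 FPKM. Of 31 genes listed as cancer-testis antigens, 6 were expressed, namely SPANXB1, PBK, ATAD2, TTK, PAGE5 and KDM5B. SPANXB1 led at 52.3, 58.2 and 91.3 FPKM, with replicate 3 above the others. It has near-identical copies that may share reads. PRAME had at most 0.01 FPKM.

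Promoter sequences were taken from RefSeq (GRCh38.p14) for 8151 of 10158 nuclear protein-coding expressed genes with a symbol of their own (80.2%), as the 250 bases before the start. A ratio of observed to expected CpG dinucleotides of at least 0.6, taken as the mean over a gene's starts, was held by 82.6% of them, by 64.8% of the 14423 protein-coding genes found in the table, expressed or not, and by 47.5% of all 35116 single promoters there, which include those of non-coding genes. The motif TATAAA, on the gene's own strand from 40 to 16 bases before the start, was held by 2.05% of the expressed genes, by 3.77% of the protein-coding genes found in the table and by 2.29% of all single promoters. The protein-coding genes found were 77.5% of those looked for, so these shares are given side by side and not compared. Of genes under 0.1 FPKM, 73.6% had a promoter in the table, and 31.45% of the 3768 found held a CpG ratio of at least 0.6. The share with a promoter there differs between these groups, and the difference in CpG ratio was not tested. Of expressed genes of 100 FPKM or more, 76.6% had a promoter there, and they were not compared either. The 4 promoters below are shown for the range they cover. TMSB10 is the highest nuclear gene and its promoter holds 31 CpG, and that of IGFBP4 holds 24 CpG and a TATAAA. The window before the RefSeq start of KRT8, a gene with a mean of 128 FPKM, holds 1 CpG, and that of FOXA1, at most 0.04 FPKM, holds 26. The KRT8 window lies inside the span of the gene in GENCODE release 29 (52897187 to 52949954). That of FOXA1 likewise lies inside its gene (37589984 to 37596059). The start of either gene in these cells may thus be another. CpG and the TATAAA in the window are in capitals, and each sequence reads 5′ to 3′ on the gene's strand. The windows are chr2:84905406-84905655 on the plus strand for TMSB10 and chr17:40443200-40443449 on the plus strand for IGFBP4. Those of KRT8 and FOXA1 are chr12:52926470-52926719 and chr14:37595250-37595499, both on the minus strand.
TMSB10: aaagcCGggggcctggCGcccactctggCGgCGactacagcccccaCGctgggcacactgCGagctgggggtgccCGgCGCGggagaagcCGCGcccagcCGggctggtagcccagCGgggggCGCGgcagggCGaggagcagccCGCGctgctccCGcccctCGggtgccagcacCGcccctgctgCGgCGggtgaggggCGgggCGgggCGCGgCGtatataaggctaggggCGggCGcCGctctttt
IGFBP4: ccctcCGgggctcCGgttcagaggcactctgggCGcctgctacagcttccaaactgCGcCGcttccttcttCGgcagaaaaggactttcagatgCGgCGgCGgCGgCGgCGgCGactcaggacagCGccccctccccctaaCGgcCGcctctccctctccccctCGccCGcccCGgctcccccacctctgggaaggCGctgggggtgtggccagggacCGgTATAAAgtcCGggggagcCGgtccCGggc
KRT8: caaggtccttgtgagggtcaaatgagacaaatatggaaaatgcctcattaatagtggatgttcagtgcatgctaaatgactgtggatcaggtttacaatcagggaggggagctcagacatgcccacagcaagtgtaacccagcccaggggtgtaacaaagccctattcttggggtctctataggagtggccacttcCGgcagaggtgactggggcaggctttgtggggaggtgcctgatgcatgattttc
FOXA1: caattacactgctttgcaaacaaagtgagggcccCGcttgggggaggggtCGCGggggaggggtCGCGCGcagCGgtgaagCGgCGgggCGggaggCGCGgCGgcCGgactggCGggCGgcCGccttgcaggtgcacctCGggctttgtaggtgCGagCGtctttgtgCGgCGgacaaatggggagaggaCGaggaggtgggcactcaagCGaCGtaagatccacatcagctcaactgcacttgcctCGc
The 4 were picked for their differences and say nothing of a relation between CpG and level. A motif match is a description of these letters only.

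The highest levels of all were those of mitochondrially encoded genes. MT-CO3, a subunit of cytochrome oxidase, had 4152, 4617 and 11974 FPKM, and MT-CO2, another subunit, had 2870, 3656 and 12209 FPKM. All genes of the mitochondrial chromosome together took 11.4%, 13.3% and 28.8% of all FPKM, highest in replicate 3. They include more than the 13 expressed ones. Among nuclear expressed genes, the 10 highest took 8.11% to 8.28% and the 100 highest 24.9% to 25.6% of the FPKM of nuclear expressed genes alone. TMSB10, which encodes the actin-binding peptide thymosin beta 10, was first of these at 3761, 3756 and 3423 FPKM, 2.81 times the level of TMSB4X on average. S100A6, GAPDH of glycolysis (2136, 2177 and 2369 FPKM) and FTL, the light chain of the iron store ferritin (2267, 2308 and 2068 FPKM), had ranges that overlapped in part. IGFBP4, a secreted binding protein of insulin-like growth factors, had 1355, 1369 and 1207 FPKM. TMSB4X, ACTB, FTH1 and PFN1 had means of 1300, 1116, 1059 and 1020 FPKM, and HMGA1, RPS12, ENO1, MT2A, ACTG1 and RPS18 completed the first 15 with means of 679 to 862 FPKM. FTH1 lies opposite exons of another gene over 62.4% of its exonic bases. Actin assembly, iron storage, glycolysis and translation each had at least 2 genes among the 15.

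Surface and receptor genes set what the cells can sense. Of 53 receptor tyrosine kinase genes 21 were expressed (39.6%, against 54.5% of all protein-coding genes). EPHA2, an ephrin receptor, had 116, 111 and 99.9 FPKM, a range that overlapped that of AXL. MET, the receptor of hepatocyte growth factor, came next at 21.2, 20.0 and 22.2 FPKM, below both in every library. EPHB4 (12.2, 12.3 and 9.60 FPKM) and EGFR overlapped. In the family of EGFR, ERBB2 had 5.38, 5.34 and 4.13 FPKM, ERBB3 had 0.36, 0.37 and 0.46 FPKM and ERBB4 at most 0.06 FPKM. Receptors of the platelet-derived and vascular growth factors were low, with PDGFRB at 0.57, 0.50 and 0.55 FPKM, KDR at 0.45, 0.53 and 0.52 FPKM and PDGFRA at most 0.02 FPKM. RET, ALK, ROS1 and the NTRK2 and NTRK3 genes had at most 0.02 FPKM.

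**Figure D2:**
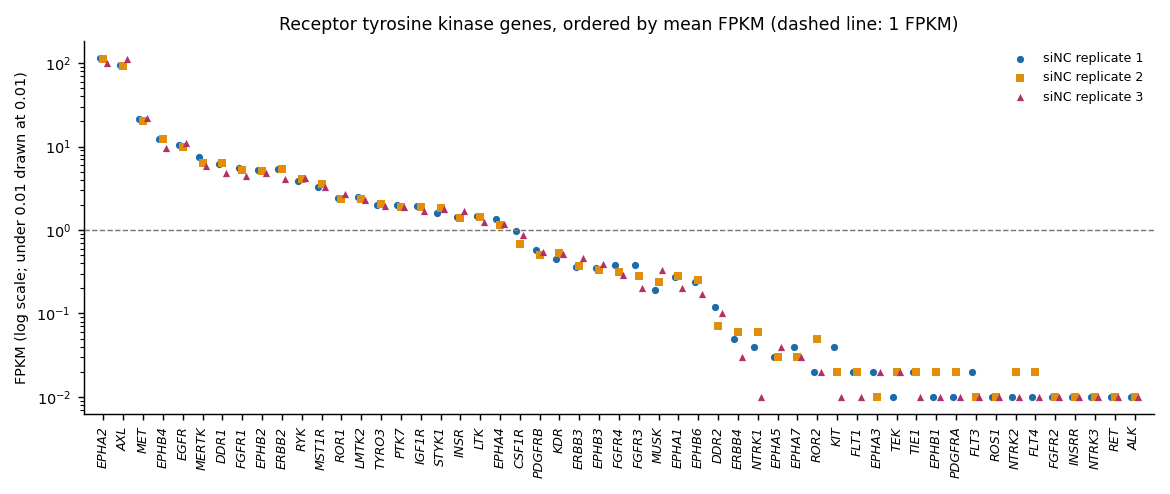
FPKM on a log scale (y axis) of 53 receptor tyrosine kinase genes ordered by their mean (x axis), 1 point per siNC library, with values under 0.01 drawn at 0.01 and the dashed line at 1 FPKM. EPHA2 and AXL lie near 100 FPKM, MET near 20 FPKM, and 21 genes lie under 0.1 FPKM in all 3 libraries.

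Of 47 G protein coupled receptor genes 17 were expressed (36.2%, against 54.5% of all protein-coding genes). F2RL1, the receptor of trypsin-like proteases, led at 64.6, 63.3 and 65.4 FPKM, followed by the adhesion receptor gene ADGRE5 (41.4, 42.5 and 38.2 FPKM) and the orphan GPRC5A (38.4, 38.2 and 39.9 FPKM). ADORA2B, a receptor of adenosine, had 34.8, 33.2 and 38.1 FPKM, and NT5E, the surface enzyme that makes adenosine, had 56.9, 55.8 and 72.6 FPKM. The chemokine receptor gene CXCR4 was near the threshold at 1.55, 1.56 and 1.48 FPKM. Among 25 integrin subunit genes 13 were expressed, a share near the 54.5% of all protein-coding genes. ITGA3, a laminin receptor subunit, had 97.8, 97.7 and 87.8 FPKM, above ITGA6 (36.5, 36.6 and 38.0 FPKM), ITGB5, ITGB1 (29.9, 28.9 and 29.6 FPKM) and ITGB4 (24.2, 24.9 and 24.1 FPKM). The reads and FPKM of ITGB1 imply a length of 17932.5 bases, against 6011 merged exon bases. Its place among these genes is thus uncertain. Subunits of leukocyte integrins were split, since ITGB2 had 5.45, 5.69 and 4.90 FPKM and its partners ITGAL, ITGAM and ITGAX at most 0.08 FPKM.

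Of 63 surface antigen genes 53 were expressed (84.1%, against 54.5% of all protein-coding genes). HLA-B and HLA-C, which present peptides to T cells, had means of 196 and 136 FPKM, and reads of these near-identical genes can be split between them by the counting. Their light chain gene B2M had 160, 152 and 164 FPKM. CD63 and CD151, tetraspanins, had means of 279 and 117 FPKM and BSG, which encodes basigin, had 221, 219 and 214 FPKM. F3, the tissue factor that starts coagulation, had 109, 97.6 and 116 FPKM. CD44 was 4.18, 4.47 and 4.70 times the level of CD24 (10.6, 9.65 and 10.4 FPKM). Genes used as targets of therapy ranged from CD276 and CD47, at means of 11.7 and 12.8 FPKM, to CD274, which encodes PD-L1, at 3.02, 3.08 and 2.78 FPKM. PROM1, CEACAM5, CEACAM6 and THY1 had at most 0.03 FPKM.

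Signalling genes of the RAS-ERK pathway, by which growth factor receptors reach the nucleus, were expressed in 35 of 41 cases. This share was 85.4%, against 54.5% of all protein-coding genes. Outputs of the pathway led the list. CCND1, the cyclin of G1, had 131, 119 and 116 FPKM, and FOSL1 was given above. The phosphatase genes DUSP6 (79.3, 76.6 and 78.2 FPKM), DUSP4 (76.8, 76.2 and 77.3 FPKM) and DUSP5 (57.4, 52.9 and 50.1 FPKM), which are feedback inhibitors of ERK, followed with PHLDA1, another early response gene (96.2, 94.6 and 101 FPKM). Of the RAS genes HRAS had 56.7, 57.0 and 48.5 FPKM and NRAS had 21.9, 21.5 and 23.4 FPKM. BRAF had 0.76, 0.68 and 0.72 FPKM, with 570 to 657 reads, and NF1, the RAS inhibitor, had 0.42, 0.38 and 0.46 FPKM, with 366 to 487 reads. Both genes were thus detected in every library, and their FPKM depends on the long gene models that the authors' unit divides by.

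In the PI3K-AKT-mTOR pathway 26 of 31 genes were expressed (83.9%, against 54.5% of all protein-coding genes). They were led by RPS6 (273, 265 and 289 FPKM), the GTPase gene RHEB (91.1, 83.2 and 85.2 FPKM) and the translation repressor gene EIF4EBP1 (68.9, 71.5 and 82.3 FPKM). AKT1 had 17.8, 17.2 and 15.7 FPKM and PIK3CA had 1.55, 1.35 and 1.46 FPKM. The row of PIK3R2 held 2, 2 and 3 reads, but 87.3% of its exonic bases lie within a same-strand gene, AC007192.4, whose row held 5945, 5734 and 5814 reads, so the level of PIK3R2 cannot be read from these tables. Across WNT, NOTCH, Hedgehog, TGF-beta and Hippo components 43 of 74 were expressed, a share near the 54.5% of all protein-coding genes. DKK1, a secreted WNT inhibitor, led at 143, 130 and 155 FPKM, while the WNT target AXIN2 had 0.59, 0.63 and 0.50 FPKM. The receptor genes TGFBR2 (35.1, 33.6 and 37.6 FPKM) and LRP5 (37.1, 39.7 and 32.1 FPKM) came next, and SMAD3, YAP1, TEAD3 and JAG1 had means of 13.2 to 16.6 FPKM. SMO, the signal transducer of Hedgehog, had 1, 1 and 0 reads, and GLI1, a target of that pathway, had 6, 4 and 6 reads.

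Of 81 cytokine and growth factor genes 48 were expressed, a share near the 54.5% of all protein-coding genes. CSF1, the growth factor of macrophages, had 109, 105 and 93.7 FPKM, and CSF2, which encodes GM-CSF, had 39.2, 34.9 and 33.0 FPKM. HDGF led the list at 158, 159 and 139 FPKM. AREG, an EGFR ligand, had 62.7, 62.5 and 76.7 FPKM, 20.8, 21.03 and 22.6 times the level of EREG. GAS6, the ligand of AXL, had 55.0, 53.0 and 41.8 FPKM, so ligand and receptor were expressed in the same libraries, as were AREG and EGFR. HGF, the ligand of MET, had a mean of 0.0067 FPKM. TGFB1 had 44.7, 45.4 and 41.4 FPKM and BMP4 46.7, 47.9 and 58.4 FPKM. Among inflammatory cytokines IL6 had 19.2, 17.0 and 20.6 FPKM, LIF 11.6, 11.6 and 10.7 FPKM and CXCL8 8.16, 6.84 and 6.51 FPKM, whereas TNF had at most 0.08 FPKM and CXCL12 a mean of 0.0033 FPKM. The row of MIF (50.1, 55.3 and 59.9 FPKM) is uncertain, since a same-strand overlapping row holds 4.21 times its reads.

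Genes of the matrix and its proteases were expressed in 56 of 80 cases (70%, against 54.5% of all protein-coding genes). The inhibitors TIMP1 (238, 234 and 217 FPKM) and CST3 (236, 222 and 187 FPKM) led, with the lysosomal protease gene CTSD (186, 174 and 144 FPKM), 41.7% of whose exonic bases are shared with a same-strand row of 30322 to 31936 reads. CCN1 (162, 154 and 161 FPKM) and CCN2 (70.2, 70.4 and 76.2 FPKM) encode matricellular proteins. The plasminogen system was present with its activators PLAU (66.9, 64.8 and 62.5 FPKM) and PLAT (67.4, 65.9 and 61.4 FPKM) and the receptor gene PLAUR (33.5, 34.1 and 29.5 FPKM). PLAU and PLAT differed by less than their spread, with ratios of 0.993, 0.983 and 1.02. MMP14, a membrane-bound collagenase, had 98.5, 98.0 and 80.4 FPKM, while the gelatinase genes MMP2 and MMP9 had at most 0.09 and 0.30 FPKM. Collagen genes differed widely, with COL1A1 at a mean of 0.60 FPKM and COL3A1 at 0.02 FPKM, COL5A1 at 9.67, 9.23 and 7.51 FPKM, while COL6A1 had 26.1, 26.5 and 20.5 FPKM.

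**Figure D3:**
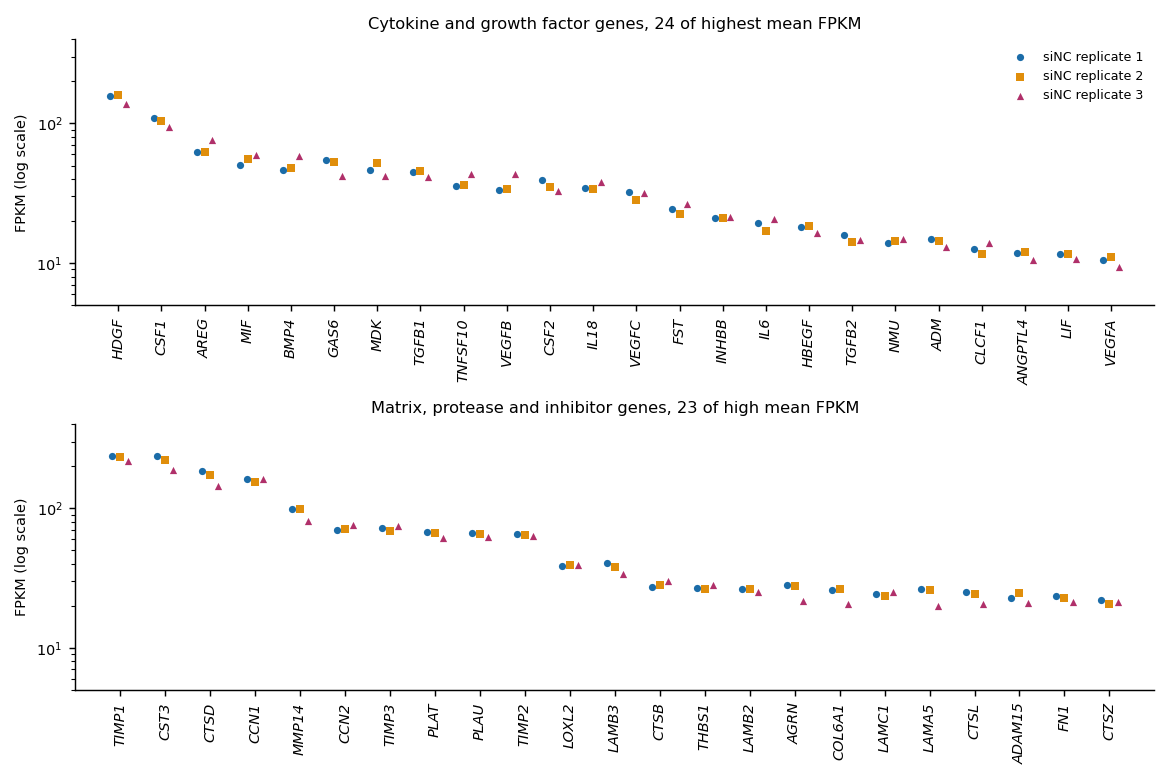
FPKM on a log scale (y axis) of the 24 cytokine and growth factor genes (upper panel) and 23 matrix, protease and inhibitor genes (lower panel) of high mean (x axes), 1 point per siNC library. Both panels run from more than 100 FPKM down to means of 10.4 FPKM (VEGFA) and 21.3 FPKM (CTSZ), and the 3 libraries lie close together for each gene.

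Metabolic genes showed one form of an enzyme or carrier far above its relatives in several cases. Glycolysis converts glucose to pyruvate and lactate, which leaves the cell through monocarboxylate carriers. Of 49 genes of glucose and lactate metabolism with a row, 33 were expressed (67.35%, against 54.5% of all protein-coding genes). Below GAPDH stood ENO1 (779, 767 and 710 FPKM), TPI1 (424, 425 and 371 FPKM), PKM (424, 414 and 326 FPKM) and LDHA (352, 336 and 356 FPKM). With the length of the longest transcript in place of the authors' length, PKM was 2.84 times higher. The glucose carrier gene SLC2A1 had 61.6, 62.3 and 64.1 FPKM, 7.42, 7.68 and 8.60 times the level of SLC2A3. The lactate carrier gene SLC16A3 (MCT4) had 75.8, 74.0 and 71.97 FPKM, while SLC16A1 (MCT1) had 0.04, 0.07 and 0.05 FPKM, with 10, 15 and 12 reads, and SLC16A7 (MCT2) had 0.79, 0.79 and 0.83 FPKM. SLC16A3 was thus the only 1 of these 3 carrier genes above the threshold. ALDOA and LDHB could not be judged from their own rows. ALDOA held 263, 233 and 220 reads while a same-strand gene that shares 42.3% of its exonic bases, CTD-2515O10.6, held 58483, 58469 and 59959 reads. LDHB held 1047, 968 and 998 reads and its overlapping row 21834, 20215 and 21672 reads.

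In the mitochondrial and citric acid cycle list 33 of 37 genes were expressed (89.2%, against 54.5% of all protein-coding genes). MDH2 led them at 86.4, 87.9 and 82.1 FPKM. Of 50 lipid genes listed, 44 were expressed (88%). The desaturase gene SCD (154, 150 and 150 FPKM) and the sterol pathway gene FDPS (148, 145 and 145 FPKM) were among the highest, with INSIG1 and ACLY, genes of lipid synthesis or its control, at means of 73.0 and 71.5 FPKM. The fatty acid carrier genes CD36 and FABP4 had at most 0.04 FPKM. Among 54 genes of amino acid and redox metabolism 46 were expressed (85.2%). Below FTL and FTH1 stood GPX1 (542, 535 and 418 FPKM), TXN (348, 330 and 430 FPKM) and PRDX1 (292, 276 and 307 FPKM), all enzymes or carriers of peroxide and thiol reduction. In serine synthesis PHGDH, the first enzyme, had 1.03, 0.98 and 0.77 FPKM, under the threshold in replicates 2 and 3. PSAT1, the second enzyme, had 31.1, 31.1 and 34.5 FPKM and PSPH, the last, 9.53, 9.03 and 9.75 FPKM. PSAT1 was 30.2, 31.7 and 44.8 times the level of PHGDH, highest in replicate 3, where PHGDH was lowest. CBS, of cysteine synthesis, had 0, 0 and 3 reads.

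Proliferation genes were expressed in 37 of 38 cases (97.4%, against 54.5% of all protein-coding genes). The exception was CCND2 at 0.26, 0.24 and 0.35 FPKM. The ubiquitin-conjugating enzyme gene UBE2C (159, 155 and 182 FPKM) was among the highest. So were the ubiquitin ligase cofactor gene CDC20 (115, 119 and 124 FPKM) and the mitotic cyclin gene CCNB1 (107, 106 and 107 FPKM). MKI67, which encodes the Ki-67 antigen, had 15.02, 14.2 and 17.2 FPKM. Among 39 tumour suppressor and cell cycle brake genes 26 were expressed (66.7%). CDKN1A, an inhibitor of cyclin-dependent kinases, led at 38.9, 36.9 and 31.7 FPKM, and RB1 had 6.12, 5.97 and 6.97 FPKM. Expression says nothing of the sequence of these genes.

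The tumour suppressor genes of chromosome 9p21 were at the floor. CDKN2A, which encodes the cell cycle inhibitor p16 (chromosome 9, 21967753 to 21995301, minus strand), had 2, 3 and 3 reads, its neighbour CDKN2B had 6, 0 and 0 reads, and MTAP, an enzyme of adenine salvage, had 3, 3 and 0 reads. The floor extended to their neighbours. From HACD4, which starts at 20999515, to 24592104, all 23 listed genes, 13 of them protein-coding, had at most 7 reads in any library, and together they held 37, 44 and 3 reads. On the side of lower coordinates FOCAD, at 20658309 and next to HACD4, had 0.14, 0.13 and 0.15 FPKM, with 46 to 60 reads. Its neighbour MLLT3 had 1.28, 1.39 and 1.67 FPKM, and further out RPS6, PLIN2 and RRAGA had means of 276, 23.8 and 49.3 FPKM, while ACER2 and SLC24A2 between them and MLLT3 had at most 0.08 FPKM. On the other side TUSC1, starting at 25676389, had 12.3, 10.7 and 9.46 FPKM. Several of the 23 genes are interferon, neural or lncRNA genes that many cells do not express, and the copy number of the segment was not tested.

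**Figure D4:**
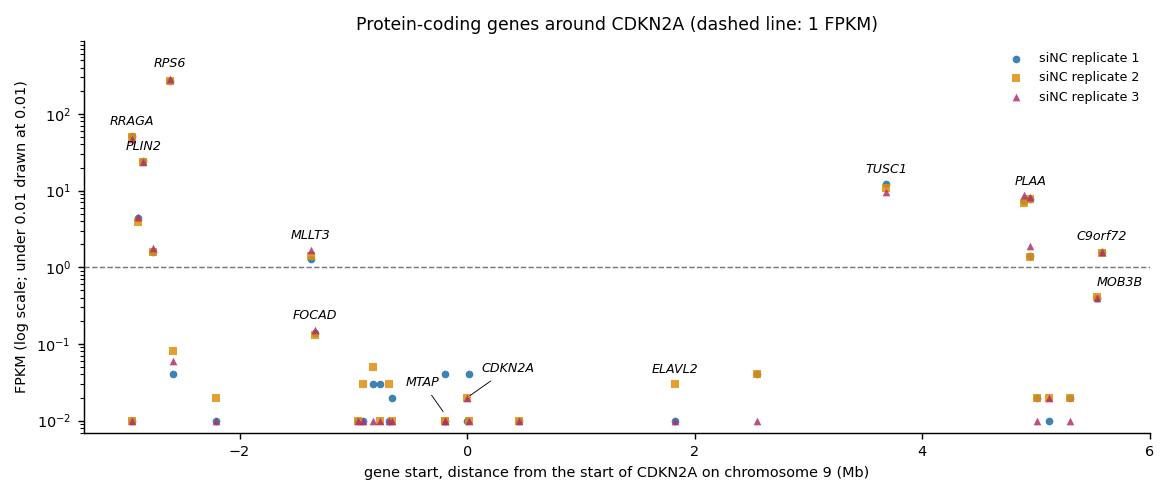
FPKM on a log scale (y axis; under 0.01 drawn at 0.01) of protein-coding genes by the distance of their start from that of CDKN2A in Mb (x axis), 1 point per siNC library, with the dashed line at 1 FPKM. Every gene from HACD4 to the last before TUSC1 lies under 0.1 FPKM, and RPS6, PLIN2, MLLT3 and TUSC1 lie above 1 FPKM.

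The lncRNA genes of highest FPKM lay over exons of abundant coding genes. RP5-940J5.9 (638, 640 and 618 FPKM) lies with all of its exonic bases opposite GAPDH, and RP11-138I1.4 and RP11-124N14.3 lie opposite UBB and VIM over 100% and 87.7% of theirs. RP11-793H13.8 and XXbac-BPG254B15.11 lie on the same strand within PCBP2 and HSPA1B, and RP11-161H23.5 and XXbac-BPG252P9.9 lie opposite TUBA1C and TUBB. The reads of these pairs cannot be told apart in the tables, since the use of strand in the counting is not given. Of the 687 expressed lncRNA genes found in GENCODE release 29, 245 had at least 50% of their exonic bases within exons of another gene and 189 had none. Of 53 well-known lncRNA genes listed, 24 were expressed (45.3%, against 5.94% of all lncRNA genes). SNHG29, a host gene of small nucleolar RNAs, had 53.7, 52.5 and 56.6 FPKM, NORAD, which binds PUMILIO proteins, had 34.2, 32.7 and 36.8 FPKM and MALAT1, a nuclear speckle RNA, had 28.9, 26.0 and 28.8 FPKM. H19 and HOTAIR had at most 2 reads in any library. RMRP, which has no long poly(A) tail, varied from 35.0 to 67.1 FPKM.

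Genes that mark other cell types were mostly under the threshold. The expressed shares of these lists were 5.26% to 11.1%, against 54.5% of all protein-coding genes. Of 19 leukocyte markers 1 was expressed, CD14 at 7.55, 7.49 and 5.96 FPKM, the 19 genes summed to 9.50 to 10.9 FPKM, and PTPRC and CD3E had at most 0.06 FPKM. CSF1R, CD8A and CD68 lay under the threshold at means of 0.84, 0.54 and 0.88 FPKM. CD68 shares 81.7% of its exonic bases with a same-strand row of 2537, 2683 and 3747 reads, against 54, 43 and 118 of its own, and counted through that row the list would hold 2 expressed genes. Of 9 endothelial markers 1 was expressed, the adhesion gene ESAM at 57.5, 57.7 and 59.0 FPKM, and the 9 genes summed to 59.1 to 60.5 FPKM, with CDH5 and VWF at means of 0.0067 and 0.017 FPKM. PECAM1 lay at the threshold with 1.07, 1.04 and 0.93 FPKM. Of 12 fibroblast and pericyte markers listed, 1 was expressed, the proteoglycan gene CSPG4 at 2.59, 2.70 and 2.24 FPKM, with DCN and PDGFRA at means of 0.027 and 0.01 FPKM and LUM, ACTA2, COL1A1 and PDGFRB at means of 0.70, 0.65, 0.60 and 0.54 FPKM. Of 17 markers of erythroid cells, hepatocytes, muscle, neurons and fat 1 was expressed, SERPINA1 at 5.21, 5.22 and 5.17 FPKM, with ALB at a mean of 0.02 FPKM. Thus PTPRC, CD3E, CDH5, VWF, DCN, PDGFRA and ALB were at or near 0, while several other markers were detected under the threshold. Their part in the results was not tested. Some whole families held no expressed gene. None of 237 olfactory receptor genes, 25 keratin-associated protein genes, 21 bitter taste receptor genes and 12 kallikrein genes was expressed, against 78 of 78 mitochondrial ribosomal protein genes and 80 of 82 cytosolic ones. In all, 5144 protein-coding genes were under 0.1 FPKM in all 3 libraries and 208 had no read in any of them.

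Few expressed genes differed between the libraries by much. Of 3868 nuclear expressed genes with a mean of at least 10 FPKM, 74 had a highest library more than 1.5 times the lowest, and in 60 of them replicate 3 was the highest. Cytosolic ribosomal protein genes were 11 of the 74. RPS27 had 171, 184 and 482 FPKM, RPL39 had 66.7, 71.5 and 161 FPKM and RPL29 had 204, 229 and 437 FPKM. KRT10, MRPS36 and CKS2, a cofactor of cyclin-dependent kinases, had ratios of 2.12, 2.02 and 1.95, all highest in replicate 3, in which mitochondrial reads were also highest. The lncRNA gene CH507-513H4.4 went the other way, at 20.6, 6.69 and 2.96 FPKM. Over all 10884 nuclear expressed genes the median ratio of replicate 3 to the mean of the others was 1.02. The part of library composition in these values was not tested.

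At the threshold itself the genes just inside were ZNF550, AGAP5 and GSAP, each with a lowest value of 1.00 FPKM, and those just outside were DLK2, MRPS9-AS1 and SERPIND1, each with a lowest value of 0.99 FPKM and means of 1.23 to 1.24 FPKM. Within 0.1 FPKM above the threshold lay 219 expressed genes, whose lowest library had a median of 205 reads.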

How the data were processed

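Polyadenylated RNA of 3 siNC libraries was used. The authors deposited read counts per gene as whole numbers without normalization for 39323 genes, and FPKM values for 39210 of them, and the 113 others had at most 3 reads. The submitters' processing notes name HISAT2, DESeq2 and hg38, without versions. Which program counted reads, whether it used strand, and from which gene annotation, is not given in the sources used here. The deposited FPKM of a gene and its count kept one ratio per library within 0.18%. GENCODE release 29 held 99.4% of expressed genes. Against it, the deposited FPKM mostly divides by about the merged exon length of all isoforms and by a total 1.23 times the gene reads. Genes with long merged models thus have lower values. For some genes, such as ITGB1, CTSD and CTSZ, the implied length was far above the merged length.

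Means and standard deviations over 3 libraries, list counts, exonic overlap and promoter composition were computed in Python 3.11.15 with pandas 2.3.3, and TMM factors with edgeR 4.0.16 in R 4.3.3. A few genes are not reported here. No comparison between groups and no test was made. The rule was tested on simulated counts. Members and the 33 gene lists (1236 genes) were chosen with earlier results of these data known. The rule for named genes took the 5 markers, the 15 highest nuclear protein-coding and 8 highest lncRNA genes, up to 6 highest members of each list and its absent genes, the 10 genes of largest spread and the 3 genes on each side of the threshold. Other genes named, such as NORAD, MALAT1, BRAF, NF1, HGF, PHGDH, CD24, IL6, CXCR4, MKI67 and the overlapping gene rows, were chosen after their values were seen. Positions are those of GENCODE release 29 on GRCh38. Alternatives were other thresholds, TPM, a read minimum, TMM scaling, totals without mitochondrial reads, and leaving out each library. The longest transcript as the length, overlapping rows and other promoter settings were added after the data were examined.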

Additional observations from a re-analysis of the deposited data

How the results depend on the processing

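The number of expressed genes was 10897 and stayed within 1.5 times that under every threshold, unit, scaling and length tried, from 8966 at 2 FPKM to 15380 at 10 reads in all 3 libraries, and was 10980 to 10992 when 1 library was left out. The 710 expressed genes on the lists ranged from 641 to 918 under the same settings, and were 712 to 715 without 1 library. Counting a list gene through a same-strand overlapping row that held more reads gave 717 genes, among them PIK3R2, TUBB3, TIGAR and CD68, with which the leukocyte markers came to 2 of 19 in place of 1. For single lists, 10 reads in all 3 libraries moved 12 of the 33 counts by more than 1.5 times, a threshold of 0.5 FPKM moved 5, and 1 TPM moved 8. The median of the mean levels of 176 named genes was 63.0 FPKM. It was 240 in TPM, 66.7 FPKM without mitochondrial reads in the total, 81.0 FPKM with the length of the longest transcript, and 61.8 to 62.6 FPKM when 1 library was left out. The longest transcript raised single levels by up to 2.84 times, for PKM, and moved 124 of the 176 by more than 1 standard deviation. Leaving out replicate 3 brought PECAM1 into the endothelial markers, 2 of 9 in place of 1. The mean of RPS27 without replicate 3 was 0.637 times, and that of CH507-513H4.4 without replicate 1 was 0.479 times, the mean over 3 libraries. The share of promoters with a CpG ratio of at least 0.6 was 82.6%, 84.5% with the first start of each gene, and 89.9% with a limit of 0.5. FPKM here depends on the authors' gene models, overlapping rows share reads, and the lowest values rest on few reads, such as CD36 with at most 14. No paired analysis was possible because only 1 group of libraries was used.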
